A study of Mus musculus with 4 samples.

Results

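Glutathione S-transferases (GSTs) are described here through 10 genes in mouse liver, Gsta1, Gsta2, Gsta3 and Gsta4 of the alpha class, Gstm1, Gstm2 and Gstm3 of the mu class, Gstp1 and Gstp3 of the pi class, and Gstt1 of the theta class. They were found by symbol among the 55488 genes counted in each library, and they were chosen by their measured levels in these libraries, so their differences between libraries are a description and not a test. Single-cell RNA was counted by 3′ tags in 4 livers, with a single mouse for each of WT, YAPKO, TAZKO and DKO. The animals carried conditional Yap fl/fl alleles (YAPKO), Taz fl/fl alleles (TAZKO) or both (DKO), deleted by Cre under the albumin promoter (Alb-Cre), which acts in hepatocytes (HCs) and biliary epithelial cells (BECs) and leaves other cells with both genes. WT is labelled wildtype, so Cre itself and the deletions cannot be told apart, no treatment was given, and neither the age nor the sex of these 4 mice is in the labels. HCs and non-parenchymal cells (NPCs) were isolated separately from each liver by digestion in situ and mixed before loading, so the share of a cell type in a library follows the mixing as well as the liver.

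GSTs join the thiol of glutathione to reactive, electrophilic compounds, which makes them more soluble and easier to export, and some also reduce lipid peroxides or bind steroids and bile acids. The soluble enzymes work as dimers formed within a class, and in the liver they are most abundant in HCs, where several of their genes respond to the oxidant-sensing factor NRF2 and to the nuclear receptors CAR and PXR. YAP and TAZ, the products of Yap1 and Wwtr1, are co-activators of transcription that bind DNA through TEAD factors.

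The deposited matrices held 66259687 UMIs in WT, 85989454 in YAPKO, 49022089 in TAZKO and 77411746 in DKO. After barcodes outside 500 to 6000 detected genes or above 10% mitochondrial UMIs were dropped, 7155, 6275, 8638 and 8294 cells remained in that order. HCs were taken as cells in which Alb, Apoa1, Ttr and Apoc3 together held at least 3% of UMIs, and they numbered 2254, 1159, 3112 and 2925. Their depth differed between libraries, with a median of 2166 UMIs per HC in WT, 6457 in YAPKO, 1854 in TAZKO and 6475 in DKO. The WT and TAZKO libraries were thus shallow and the YAPKO and DKO libraries deep, a split that deletion of Yap1 shares, so depth and the loss of Yap1 cannot be told apart from the pooled values alone. Between 9 and 26 kept barcodes were shared by a pair of libraries, of which 0 to 5 were HC barcodes in both. No doublet caller was run, and doublets were kept.

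The HC class is a range on a score and not a separate set. In WT 52 HCs lay between 3% and 4% and 97 other cells between 2% and 3%, against 94 and 51 in YAPKO, 138 and 180 in TAZKO, and 297 and 205 in DKO. Over single HCs, the median level of the marker lists of ECs, KCs, HSCs, T cells, B cells and neutrophils was 0 in every library. The BEC list of 8 genes had a median of 0 in WT and TAZKO, 274 UMIs per 1000000 UMIs (CPM) in YAPKO and 469 in DKO, with Tstd1 its most abundant gene in the pooled HCs at 251 and 493 CPM in those last libraries, and 1 of the 8 genes at 0 in each of them. The monocyte and macrophage list of 7 genes had medians of 0, 411.5, 459.5 and 54.4 CPM in the order WT, YAPKO, TAZKO and DKO, with Fn1, which HCs also make, its most abundant gene. Lists with a median of 0 still differed in the pooled HCs. The EC list summed to 104, 90.7, 211 and 96.9 CPM in the same order, and the B-cell list to 18.5, 29.9, 75.0 and 16.7. The T-cell list summed to 12.3, 5.74, 41.6 and 21.3, and the neutrophil list to 238, 165, 46.2 and 42.6. Their part in the results was not tested, but leaving out HCs with over 0.5% of UMIs from the markers of other types left the counts of members past 2-fold as they were.

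With 1 library per genotype there is no replicate, so every comparison is between libraries, and the exact 95% intervals (Poisson for a level, conditional binomial for a ratio, Clopper-Pearson for a share) cover counting error only. The deleted genes were lowered in HCs of the libraries so labelled, and the gene left intact was past 2-fold higher in YAPKO and TAZKO. Relative to the median log2 ratio of all genes tested (0.39 in YAPKO and 0.52 in TAZKO), it was less than 2-fold higher in both. Yap1 had 406 UMIs in WT, 77 in YAPKO, 666 in TAZKO and 147 in DKO, which gave log2 ratios to WT of -2.22 in YAPKO, 1.13 in TAZKO and -2.18 in DKO. Wwtr1 had 107, 229, 48 and 91 UMIs, with log2 ratios of 1.28 in YAPKO, -0.74 (interval -1.26 to -0.24) in TAZKO and -0.95 (-1.37 to -0.53) in DKO. A 3′ tag can still count a transcript that lacks the deleted exons, so the remaining UMIs do not measure intact RNA.

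Levels are CPM over all UMIs of the pooled HCs, and all 10 members passed the filter of a mean of 10 CPM over the 4 libraries, as did 6580 genes in all. Gsta1, Gstm2 and Gstm3 were under 10 CPM in WT and passed through other libraries, where they had to be higher. In YAPKO, 3 members were at least 2-fold higher than in WT (3.97% of all genes tested) and 1 was at least 2-fold lower (0.547%). In TAZKO, 1 was higher (15.6% of genes) and 0 were lower (1.20%). In DKO, 7 were higher (8.62% of genes) and 0 were lower (1.69%). Since the same ratios were in view when the members were chosen, nothing is read from these shares. The median log2 ratio over the members was 0.40 in YAPKO, 0.04 in TAZKO and 1.68 in DKO. Over all genes tested the median was itself above 0, at 0.39, 0.52 and 0.44, and relative to it 3, 0 and 6 members were at least 2-fold higher and 1, 3 and 0 lower.

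**Figure D1:**
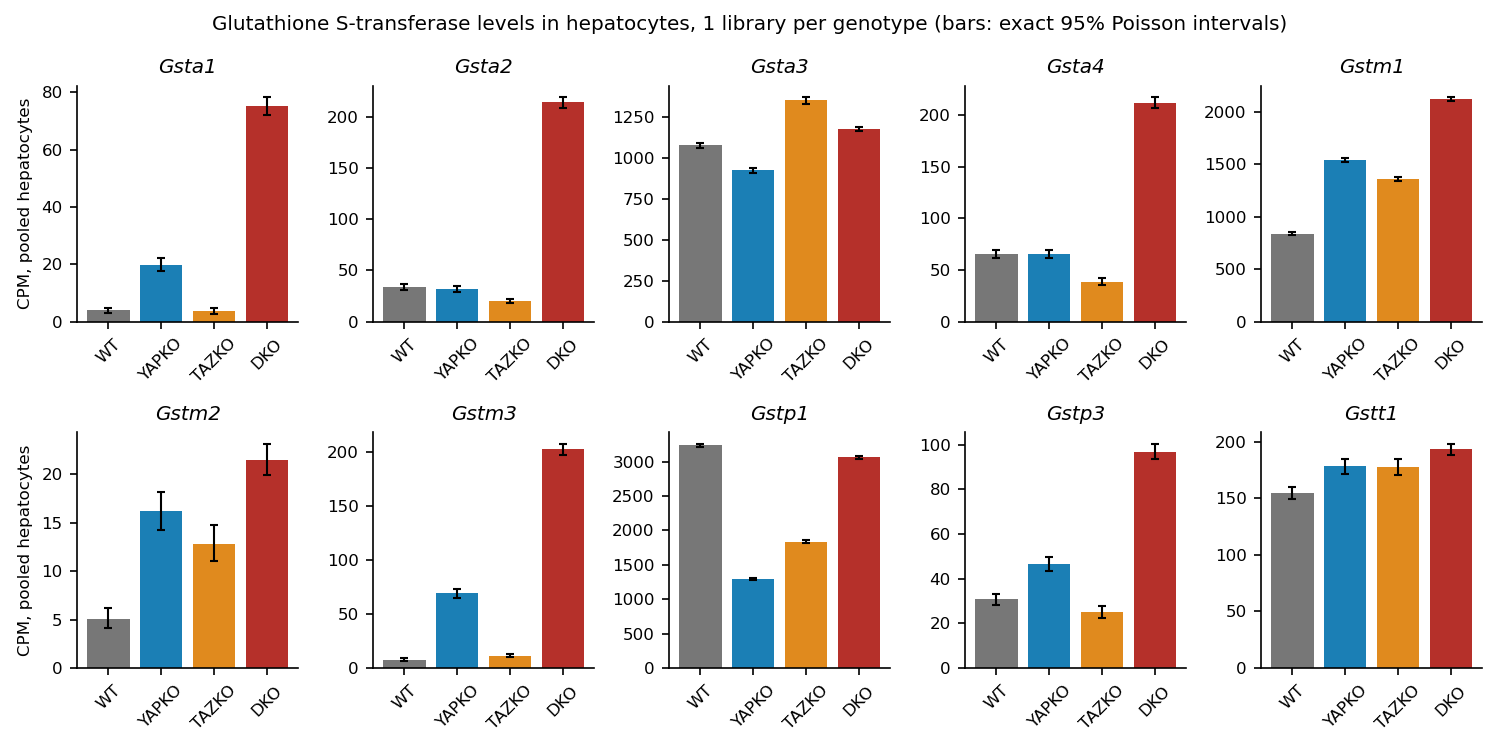
Level of each of the 10 members in CPM of pooled HCs, with 1 bar per library (WT, YAPKO, TAZKO, DKO), bars starting at 0, and exact 95% Poisson intervals. DKO is the highest library for Gsta1, Gsta2, Gsta4, Gstm1, Gstm2, Gstm3, Gstp3 and Gstt1, WT for Gstp1 and TAZKO for Gsta3.

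Gsta1 and Gsta2 encode alpha-class enzymes that are scarce in untreated mouse liver and rise when NRF2 or xenobiotic receptors are activated. Gsta1 (chr9:78230656-78242684, GRCm38, plus strand) stood at 3.91 CPM in WT (interval 3.08 to 4.90), 19.9 in YAPKO (17.8 to 22.1), 3.62 in TAZKO (2.70 to 4.745) and 75.2 in DKO (72.2 to 78.3). The WT and TAZKO intervals overlap, YAPKO lies above both, and DKO lies above YAPKO. Against WT, Gsta1 had a log2 ratio of 2.35 (1.98 to 2.73) in YAPKO and 4.27 (3.93 to 4.62) in DKO, a 19.2-fold difference, and DKO exceeded YAPKO by 1.92 on the log2 scale. Gsta2 (chr9:78331018-78355788, minus strand) stood at 33.6 CPM in WT, 31.5 in YAPKO, 19.97 in TAZKO and 214 in DKO. Only DKO was high for Gsta2, 6.37-fold above WT (log2 ratio 2.67, interval 2.55 to 2.79), while the YAPKO ratio of -0.09 changed sign under 6 of 12 alternative settings. With HCs set at 10% of UMIs the DKO ratio of Gsta2 fell to 1.88 and that of YAPKO to -1.20. So the neighbours Gsta1 and Gsta2 differ in the YAPKO library, where the former was raised and the latter was not.

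The stretches of 150 bases before the RefSeq start sites of Gsta1 and Gsta2 are shown because these genes lie, with Gsta4, within 173 kb and both were highest in DKO. They come from the RefSeq promoter table (build GRCm38.p6), which held 9 of the 10 members and no entry for Gsta4. Each is written 5′ to 3′ on the strand of its gene, from chr9:78230519-78230668 and chr9:78347146-78347295, and capitals mark the 4 runs of at least 12 bases that they share, together 68 bases with a longest run of 29.
Gsta1: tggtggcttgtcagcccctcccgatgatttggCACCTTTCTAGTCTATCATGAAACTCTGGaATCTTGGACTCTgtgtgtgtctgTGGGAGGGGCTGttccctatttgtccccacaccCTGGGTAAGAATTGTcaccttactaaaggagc
Gsta2: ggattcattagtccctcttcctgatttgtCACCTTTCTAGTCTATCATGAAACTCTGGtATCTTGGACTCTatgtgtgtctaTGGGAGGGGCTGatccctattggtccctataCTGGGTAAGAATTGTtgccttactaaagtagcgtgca

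The transcripts of Gsta1 and Gsta2 are also alike at their 3′ ends, where the tags are read. Of the windows of 90 bases in the last 500 bases of protein-coding transcripts, 320 of 411 windows of Gsta1 (77.9%) occur in another gene as well, namely Gm3776 or Gsta2, and 201 of 651 windows of Gsta2 (30.9%) occur in Gm10639, Gm3776 or Gsta1. A read from a shared window cannot be assigned to 1 gene, so the UMIs of Gsta1 may undercount it. The predicted gene Gm3776 showed the Gsta1 pattern, at 0.782 CPM in WT, 2.425 in YAPKO, 0.765 in TAZKO and 17.7 in DKO. Whether those UMIs belong to Gm3776 or to Gsta1 was not tested.

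Gsta3 encodes the alpha-class enzyme of mouse liver that detoxifies the aflatoxin epoxide. Gsta3 (chr1:21240589-21265661, plus strand) stood at 1077 CPM in WT, 925.5 in YAPKO, 1352 in TAZKO and 1175 in DKO. These levels lay close together, with TAZKO highest and YAPKO lowest, and the log2 ratios to WT were -0.22, 0.33 and 0.13. Relative to the median of all genes tested they were -0.61, -0.19 and -0.32, so the direction in TAZKO and DKO depends on that scaling. Gsta3 was the only member of the 9 whose promoter window (250 bases before to 50 after the start) held the core of the antioxidant response element, the DNA letters through which NRF2 acts. The motif TGACNNNGC, searched on both strands, was present in 12.4% of 32851 such windows of all genes. In Gsta3 it began 121 bases before the start, and a match to GTTAAT, part of the site of the liver factor HNF1 (7.10% of all windows), began 149 bases before it. The stretch chr1:21240421-21240487 is shown with both matches in capitals, the HNF1 letters first and on the opposite strand.
Gsta3: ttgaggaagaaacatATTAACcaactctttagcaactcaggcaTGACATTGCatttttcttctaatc

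Gsta4 encodes the alpha-class enzyme that acts on hydroxynonenal and related aldehydes from oxidised lipids. Gsta4 (chr9:78182774-78209349, plus strand) stood at 65.4 CPM in WT, 65.3 in YAPKO, 38.6 in TAZKO and 212 in DKO. WT and YAPKO did not differ beyond counting error, TAZKO was lower, and DKO was 3.24-fold above WT (log2 ratio 1.70, interval 1.61 to 1.78), a ratio that fell to 0.76 with HCs set at 10% of UMIs. This is nearly the pattern of Gsta2, whose gene lies on the same chromosome, and neither Gsta4 nor Gsta3 shared any end window with another gene.

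Gstm1 encodes the main mu-class enzyme of mouse liver. Gstm1 (chr3:108012255-108017973, minus strand) stood at 838.5 CPM in WT, 1536 in YAPKO, 1362 in TAZKO and 2123 in DKO. All 3 knock-out libraries were above WT, and the log2 ratios were 0.87, 0.70 and 1.34, or 0.49, 0.18 and 0.90 relative to the median of all genes tested. Gstm1 passed 2-fold in DKO, but neither relative to the median gene nor with HCs set at 10% of UMIs (0.33), and in YAPKO it passed 2-fold under 5 of 12 alternatives (up to 1.95). Of its end windows, 94 of 783 (12.01%) occur in another gene, of which only Gstm3 had more than 19 UMIs in any library.

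Gstm3 encodes another mu-class enzyme, and with HCs set at 3% of UMIs its ratios were the largest among the members in YAPKO and DKO. Gstm3 (chr3:107963696-107969283, minus strand) stood at 7.925 CPM in WT (interval 6.72 to 9.29), 69.3 in YAPKO (65.4 to 73.4), 11.6 in TAZKO (9.92 to 13.5) and 203 in DKO (198 to 208). The order was WT, TAZKO, YAPKO and DKO, with no overlap of intervals. Against WT, the log2 ratio of Gstm3 was 3.13 (2.88 to 3.38) in YAPKO, 0.55 (0.23 to 0.88) in TAZKO and 4.68 (4.45 to 4.92) in DKO, the last a 25.6-fold difference. With HCs set at 10% of UMIs the DKO ratio of Gstm3 fell to 3.40, while that of Gsta1 was at least 3.82 under every alternative. No end window of Gstm3 was shared with another gene.

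Gstm2, the remaining mu-class member, was scarce in HCs, with 97 UMIs in WT, 273 in YAPKO, 184 in TAZKO and 675 in DKO. Its level (chr3:107981702-107986453, minus strand) was 5.06 CPM in WT, 16.15 in YAPKO, 12.8 in TAZKO and 21.5 in DKO. All 3 knock-out libraries were above WT, with log2 ratios of 1.67 (1.34 to 2.02), 1.34 (0.98 to 1.71) and 2.09 (1.78 to 2.41). With HCs set at 1% of UMIs the YAPKO and TAZKO ratios fell to 0.78 and 0.55, and TAZKO was at least 2-fold higher under 8 of 12 alternatives. Gstm2 was also abundant in cells other than HCs, as given further on, so part of these UMIs may be free RNA. It was the only member of the 9 whose promoter window held the TEAD letters GGAATG, which 14.7% of all windows hold. The matches began 207 bases (on the opposite strand) and 114 bases before the start. The stretch chr3:107986514-107986642 is shown with these matches in capitals, since TEAD factors are the partners of the deleted genes, and a match does not show binding.
Gstm2: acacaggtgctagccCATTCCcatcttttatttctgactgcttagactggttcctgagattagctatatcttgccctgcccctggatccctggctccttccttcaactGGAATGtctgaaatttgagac

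The TCF/LEF letters CTTTGAT, searched because beta-catenin signalling sets gene expression around the central vein, occurred in 0 of the 9 members' windows and in 3.73% of all windows.

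Gstp1 encodes the pi-class enzyme, which also binds and restrains the kinase JNK, and it was the most abundant member by UMIs in WT, TAZKO and DKO. Gstp1 (chr19:4035407-4037985, minus strand) stood at 3234 CPM in WT, 1294 in YAPKO, 1834 in TAZKO and 3059 in DKO. WT and DKO were high, and the YAPKO and TAZKO libraries were low. Its log2 ratio was -1.32 (-1.34 to -1.30) in YAPKO, -0.82 in TAZKO and -0.08 in DKO. The library that lacks both Yap1 and Wwtr1 was thus nearer to WT than either library that lacks 1 of them, and DKO exceeded YAPKO by 1.24 on the log2 scale. Under 12 alternatives, Gstp1 was at least 2-fold lower in YAPKO in 7 and in TAZKO in 5. In HCs under 5000 UMIs its YAPKO ratio was -0.46. Of the end windows of Gstp1, 401 of 577 (69.5%) also occur in Gstp2 or the pseudogene Gstp-ps. Gstp-ps stood at 452 CPM in WT, 324 in YAPKO, 267 in TAZKO and 338 in DKO, so it was highest in WT as well, and the assignment of reads between these genes was not tested.

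Gstp3, a second pi-class gene within the same 24.2 kb (chr19:4057477-4059569, minus strand), did not share the pattern of Gstp1. It stood at 30.8 CPM in WT, 46.5 in YAPKO, 25.2 in TAZKO and 97.01 in DKO. DKO was high, 3.15-fold above WT (log2 ratio 1.65, interval 1.53 to 1.78), YAPKO was slightly raised at 0.59, and TAZKO lay slightly below WT at -0.29. The DKO ratio fell to 0.33 when HCs were set at 10% of UMIs. Gstp3 shared no end window with another gene.

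Gstt1 encodes a theta-class enzyme that acts on small halogenated compounds. Gstt1 (chr10:75783813-75798584, minus strand) stood at 154 CPM in WT, 178 in YAPKO, 177.5 in TAZKO and 193 in DKO. It varied least of all members, with log2 ratios of 0.21, 0.20 and 0.32, which fell to -0.18, -0.32 and -0.12 relative to the median of all genes tested.

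**Figure D2:**
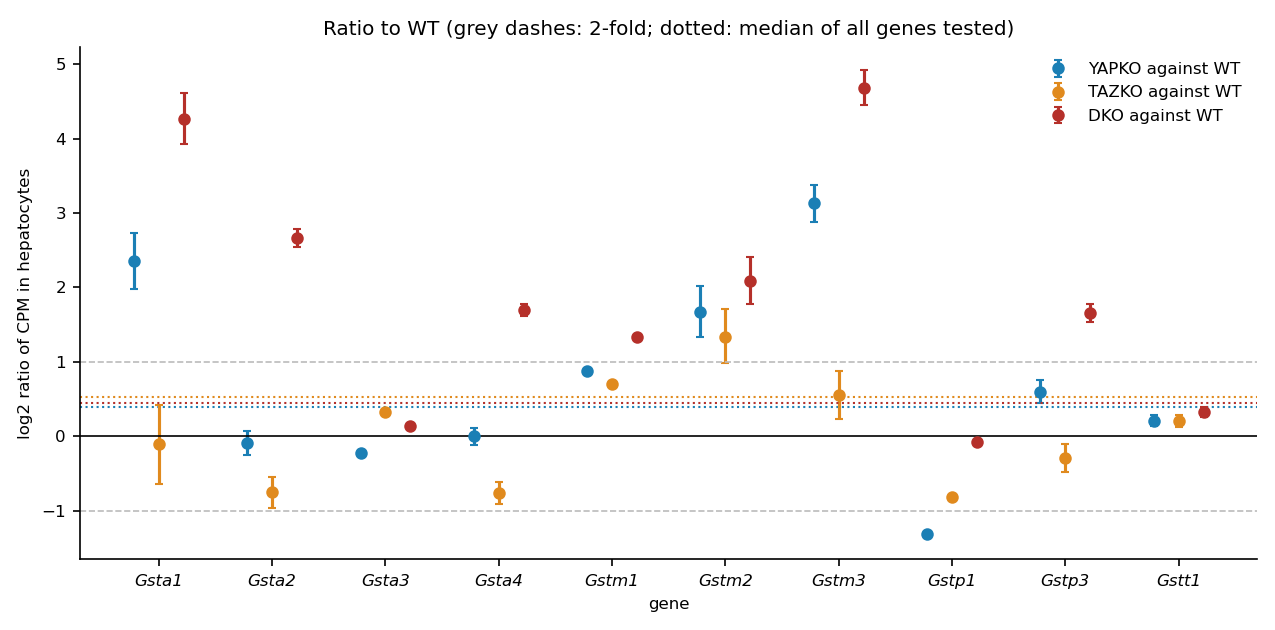
Log2 ratio of CPM in HCs to WT for each member in YAPKO, TAZKO and DKO, with exact 95% intervals, dashed lines at 2-fold and dotted lines at the median of all genes tested in each comparison. Gsta1 and Gstm3 are raised in YAPKO and more so in DKO, Gsta2, Gsta4 and Gstp3 are past 2-fold in DKO only in these pooled values, and Gstp1 is lowered in YAPKO and TAZKO.

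The members thus fell into several patterns across the libraries. Gsta1 and Gstm3 were raised in YAPKO and further in DKO, and not past 2-fold in TAZKO. Gsta2, Gsta4 and Gstp3 were past 2-fold in DKO only. Gstm1 and Gstm2 were above WT in all 3 knock-out libraries, Gstp1 was below WT in YAPKO and TAZKO, and Gsta3 and Gstt1 stayed within 2-fold of WT. TAZKO had the largest log2 ratio to WT for Gsta3 only. These patterns are those of the pooled HCs, and some depended on the setting. Under 12 alternatives, Gstp3 and Gstm1 were each at least 2-fold higher in YAPKO in 5, and in TAZKO Gsta2 was at least 2-fold lower in 4, Gsta4 in 6 and Gsta1 in 2. Gstp1 was at least 2-fold lower in TAZKO in 5 (down to -1.34) and in YAPKO in 7. Among the same 12 the sign of the ratio changed in at least 1 for Gsta2, Gsta3, Gsta4 and Gstt1 in YAPKO, for Gsta1, Gsta3, Gstm3 and Gstt1 in TAZKO, and for Gsta3, Gstp1 and Gstt1 in DKO. Since all ratios share the WT library, an error in that library would move all of them together. Between knock-out libraries, without WT, DKO exceeded TAZKO by 4.38 for Gsta1 and 4.13 for Gstm3 on the log2 scale, and YAPKO exceeded TAZKO by 2.46 and 2.58.

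As a share of UMIs, with no correction for how well each transcript is captured, the 10 members together made up 5450 CPM of HC RNA in WT, 4183 in YAPKO, 4838 in TAZKO and 7373 in DKO. The pi class held 59.9% of member UMIs in WT, 32.05% in YAPKO, 38.4% in TAZKO and 42.8% in DKO. The mu class held 15.6%, 38.8%, 28.65% and 31.8% in the same order. In YAPKO the mu class thus held more UMIs than the pi class, unlike in WT, with Gstm1 at 36.7% and Gstp1 at 30.9% of member UMIs, where WT had 15.4% and 59.3%. At 2000 UMIs per HC, and without the 38 HCs of YAPKO richest in Gstm1 (described below), Gstm1 and Gstp1 were about equal there, at 1827 and 1820 CPM. The alpha class rose from 1180 CPM in WT to 1677 in DKO, and most of it was Gsta3 in every library.

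Since the depth of HCs differed between libraries, the levels were also taken within ranges of depth. Among HCs of at least 5000 UMIs, Gstm3 stood at 7.58 CPM in WT, 63.1 in YAPKO, 12.2 in TAZKO and 183 in DKO, and among those of 2000 to under 5000 UMIs at 8.21, 132, 10.97 and 364. Under 2000 UMIs it stood at 11.1, 192, 10.1 and 409. Gsta1 stood at 3.44, 18.2, 4.12 and 69.7 CPM in the deep range and at 4.62, 36.0, 3.025 and 121 in the middle range. YAPKO and DKO stayed above WT and TAZKO for both genes, and for Gstm3 the order of WT and TAZKO changed under 2000 UMIs, where their intervals overlap. Gstp1 was less even. It stood at 3172 CPM in WT, 1184 in YAPKO, 1886 in TAZKO and 2935 in DKO among HCs of at least 5000 UMIs, at 3524, 2571, 1908 and 4251 in the middle range, and at 3502, 2478, 1532 and 3185 under 2000 UMIs. The difference between YAPKO and WT was thus larger in deep HCs, TAZKO and not YAPKO was lowest below 5000 UMIs, and DKO lay above WT in the middle range. Mitochondrial UMIs were more frequent in the deep than in the middle range of every library, at 3.43%, 4.06%, 4.44% and 2.89% against 0.499%, 1.10%, 2.08% and 0.7285%, and the part of cell quality was not tested.

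The share of HCs with a UMI depends on depth, so each HC was thinned to 2000 UMIs, which left out every HC under that depth. Gstm3 was then found in 1.52% of 1319 HCs in WT (interval 0.929% to 2.33%), 12.4% of 1015 in YAPKO (10.4% to 14.6%), 2.51% of 1433 in TAZKO (1.77% to 3.46%) and 29.95% of 2591 in DKO (28.2% to 31.75%). Gsta1 was found in 0.607%, 4.14%, 0.837% and 12.7%, and Gsta2 in 7.20%, 9.46%, 4.12% and 37.2%. B cells, taken as cells in which these genes are silent and free RNA adds the UMIs, had median depths of 2941, 2860, 2806 and 2164 UMIs and were thinned to the same 2000 UMIs. Among them 0 of 408 had a Gsta1 UMI in WT, 0 of 403 in YAPKO, 0 of 507 in TAZKO and 0 of 225 in DKO, with intervals that reach up to 0.9001%, 0.911%, 0.725% and 1.63%. The intervals of the Gsta1 shares of HCs overlap these in WT (0.262% to 1.19%) and TAZKO (0.433% to 1.46%) and lie above them in YAPKO and DKO. For Gstm3 the B cells gave 0%, 0%, 0.197% and 1.33%. For Gstp1 they gave 47.3% in WT, 14.1% in YAPKO, 26.0% in TAZKO and 18.7% in DKO, and whether these UMIs are free RNA or made in B cells was not tested.

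A median HC thinned in this way held UMIs of 3 of the 10 members in WT, YAPKO and TAZKO and of 4 in DKO. At least 5 members were found in 8.19% of HCs in WT, 20% in YAPKO, 6.28% in TAZKO and 48.9% in DKO. Gsta1 and Gstm3 tended to be found in the same HCs in YAPKO and DKO. In WT and TAZKO only 8 and 12 HCs had Gsta1, of which 0 and 1 held Gstm3, too few to compare. In YAPKO, Gstm3 was found in 47.6% of the 42 HCs with Gsta1 and in 10.9% of the others, and in DKO in 48.5% of 330 and 27.2% of the others.

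Gstm1 was spread very unevenly over single HCs in the YAPKO and DKO libraries. At 2000 UMIs per cell, the variance of its count was 1.67 times the mean in WT, 14.4 times in YAPKO, 1.46 times in TAZKO and 8.61 times in DKO, where random sampling alone gives a ratio of 1. The highest HC held 16 Gstm1 UMIs in WT, 93 in YAPKO, 17 in TAZKO and 92 in DKO. The median HC, by contrast, held 1, 2, 3 and 4. A long tail of HCs with very much Gstm1 was therefore present in YAPKO and DKO and not in WT or TAZKO at this depth.

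**Figure D3:**
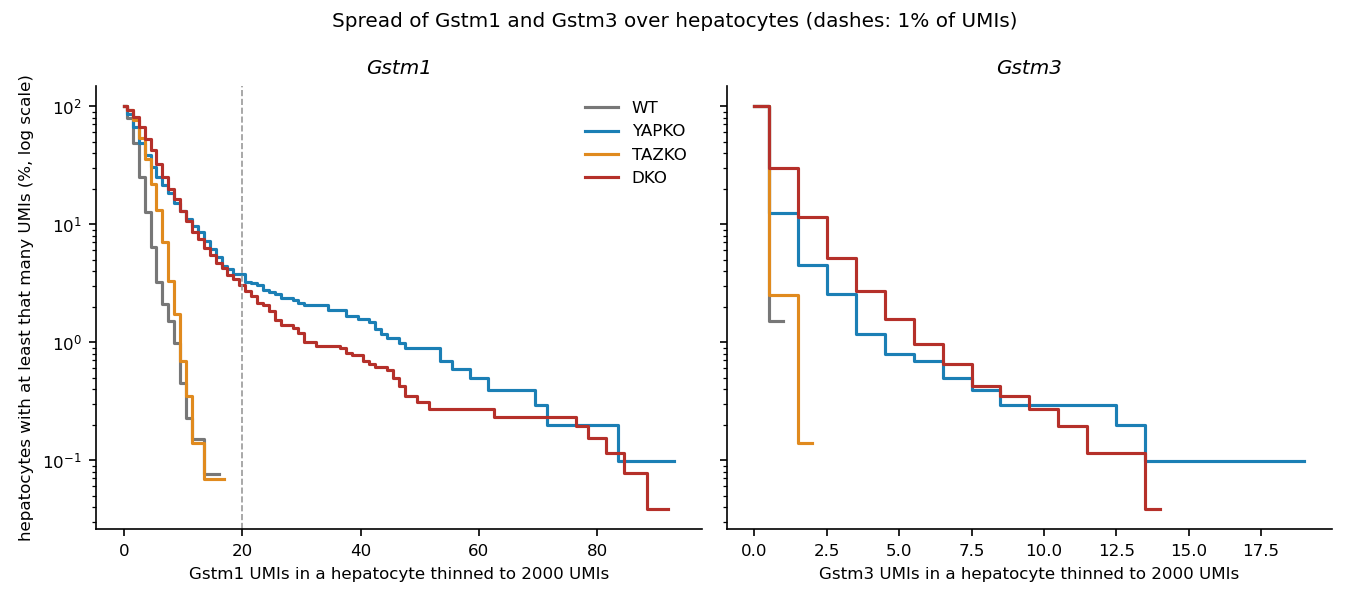
Percent of HCs, on a log axis, that hold at least the number of UMIs on the horizontal axis, for Gstm1 (left) and Gstm3 (right) in HCs thinned to 2000 UMIs, with 1 line per library and a dashed line at 1% of UMIs (20 UMIs). The YAPKO and DKO lines for Gstm1 run on to 93 and 92 UMIs, and those of WT and TAZKO end at 16 and 17.

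After these values were seen, HCs with Gstm1 at 1% of their UMIs or more (at least 20 of 2000) were set apart as Gstm1-high. There were 0 of 1319 in WT (interval up to 0.279%), 38 of 1015 in YAPKO (3.74%, interval 2.66% to 5.10%), 0 of 1433 in TAZKO (up to 0.257%) and 79 of 2591 in DKO (3.05%, 2.42% to 3.79%). They held 29.3% of the Gstm1 UMIs of YAPKO and 18.8% of those of DKO. They were shallower than the other HCs of their library before thinning, with a median of 5135 against 8907 UMIs in YAPKO and 5322 against 7586 in DKO. Mitochondrial UMIs made up 0.747% of their RNA in YAPKO against 2.65% in the others, and 0.400% against 1.72% in DKO. The part of depth and cell quality in this group was not tested.

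Other members were raised in the same cells. In YAPKO, Gstm3 stood at 1553 CPM in Gstm1-high HCs and 69.6 in the others, a log2 ratio of 4.48 (4.11 to 4.85), and 46.5% of all Gstm3 UMIs were in those 38 HCs. Gsta1 stood at 513 and 17.9 CPM (log2 ratio 4.84), and Gsta2 at 487 and 45.04 (3.43). In DKO the contrasts had the same direction, smaller than in YAPKO for Gstm3, Gsta1 and Gsta2 and not for Gstm2 or Gsta3. There Gstm3 stood at 1886 and 220 CPM (log2 ratio 3.10), Gsta1 at 785 and 78.6 (3.32), Gstm2 at 114 and 26.3 (2.12), and Gsta2 at 759.5 and 268, a 2.84-fold difference. Of the other 9 members, 7 were at least 2-fold higher in Gstm1-high HCs in YAPKO and 6 in DKO. Of all genes with at least 20 UMIs and a ratio, 11.3% were higher and 15.7% lower in YAPKO, and 7.89% and 15.2% in DKO. The cells were picked by a member after the values were seen, so these shares describe the group and test nothing. Gstm3 in the other HCs of YAPKO was still above the 7.925 CPM of WT HCs, and without the Gstm1-high HCs the thinned libraries still had 5 members past 2-fold in YAPKO and 7 in DKO. Of all genes at that setting, 15.4% in YAPKO and 17.8% in DKO were at least 2-fold higher than in WT.

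Among genes commonly reported as NRF2 targets with at least 20 UMIs in Gstm1-high and other HCs together, 6 of 20 were at least 2-fold higher and 1 lower in the Gstm1-high HCs of YAPKO (median log2 ratio 0.51), and 5 of 22 higher and 1 lower in DKO (0.38). Of all genes with at least 20 UMIs and a ratio, 11.3% were higher and 15.7% lower in YAPKO, and 7.89% and 15.2% in DKO. Named after their values were seen, Srxn1 had log2 ratios of 2.51 in YAPKO and 1.93 in DKO, and Cbr1 2.32 and 1.43. Other genes of the list lay near 0 in YAPKO, among them Gclc (0.26), Gclm (0.20), Me1 (0.18) and Txnrd1 (0.08), and Abcc2 was lower (-1.58). Ftl1, an iron-storage gene, stood at 17842 CPM in Gstm1-high HCs and 7022 in the others in YAPKO, and at 19025 and 8826 in DKO. Of the 4 HC marker genes 0 were past 2-fold in either library, with medians of -0.22 and -0.17, and Alb was the lowest at -0.91 and -0.87. Of the pericentral list 5 of 6 genes were at least 2-fold lower and 0 higher in YAPKO (median -2.04), and 0 of 6 lower and 1 higher in DKO (median 0.44). Of the periportal list 4 of 10 were lower and 1 higher in YAPKO (median -0.82), and 2 of 10 lower and 0 higher in DKO (median -0.49).

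HCs differ in gene expression along the lobule, from the portal vein to the central vein. Within each library the HCs with at least 10 UMIs from lists of pericentral and periportal genes, which hold no GST gene, were ordered by the pericentral share of those UMIs and split into 3 groups of equal size. The gradient was resolved unevenly. The median pericentral share was 0% in WT, 0.604% in YAPKO, 22.7% in TAZKO and 3.06% in DKO. In the same order, 54.4%, 38.35%, 3.90% and 27.5% of these HCs had no pericentral UMI. Such HCs tie at a share of 0 and were ordered only by their place in the matrix. There were 1014 of them in WT and 423 in YAPKO, more than the 621 and 368 HCs of the periportal groups. The periportal groups of WT and YAPKO are thus arbitrary parts of the tied HCs. The median HC of the middle group held 5934 UMIs in WT and 27234 in YAPKO, against 2215 and 5348 in the pericentral group. Periportal genes did not all follow the groups. In WT, Cyp2f2 stood at 1231 CPM in the periportal and 1538 in the middle group. Cps1 was higher in the pericentral than in the periportal group in YAPKO (log2 ratio 0.35) and DKO (0.14), and Ass1 in DKO (0.22). The other periportal genes were lower in the pericentral than in the periportal group in every library.

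Gstm2 was the member with the steepest gradient. It stood at 16.85 CPM in the pericentral and 4.14 in the periportal group in WT, 52.55 and 3.78 in YAPKO, 32.5 and 3.62 in TAZKO, and 49.1 and 13.5 in DKO. It was pericentral in every library, with log2 ratios of 2.03 (1.19 to 2.94), 3.80 (2.93 to 4.82), 3.17 (2.56 to 3.81) and 1.86 (1.58 to 2.15). Of all genes tested, 3.73%, 3.61%, 2.22% and 2.14% were at least 2-fold higher in the pericentral group in WT, YAPKO, TAZKO and DKO, with medians of 0.17, 0.17, 0.01 and 0.06. Gsta3 was higher in the pericentral group by 0.54, 0.74, 0.59 and 1.10, and Gstm1 by 0.72, 0.41, 0.60 and 0.15, so the Gstm1 gradient was least in the library with the most Gstm1. Gstm3 was higher in the pericentral group by 0.57, 1.81, 1.01 and 0.37, with an interval that includes 0 in WT (-0.13 to 1.27). Gsta2 went the other way in WT, YAPKO and DKO, at -0.58, -0.40 and -0.57, and in TAZKO its ratio of 0.15 did not differ from 0 beyond counting error. Gsta1 had ratios of 1.47, 1.51, -0.31 (-1.56 to 0.77) and 0.50 (0.35 to 0.66), with intervals above 0 in WT, YAPKO and DKO. That of WT rests on 25 and 12 UMIs, and it reversed to -0.55 when the groups were made from Cyp2e1 and Cyp2f2 alone. In that setting 307 of 357 HCs of WT had no Cyp2e1 UMI and were placed by their order in the matrix, so the reversal says little about zonation. Gsta4, Gstp1 and Gstt1 differed by at most 0.30 between these groups in any library, and Gstp3 ranged from -0.49 to 0.46.

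**Figure D4:**
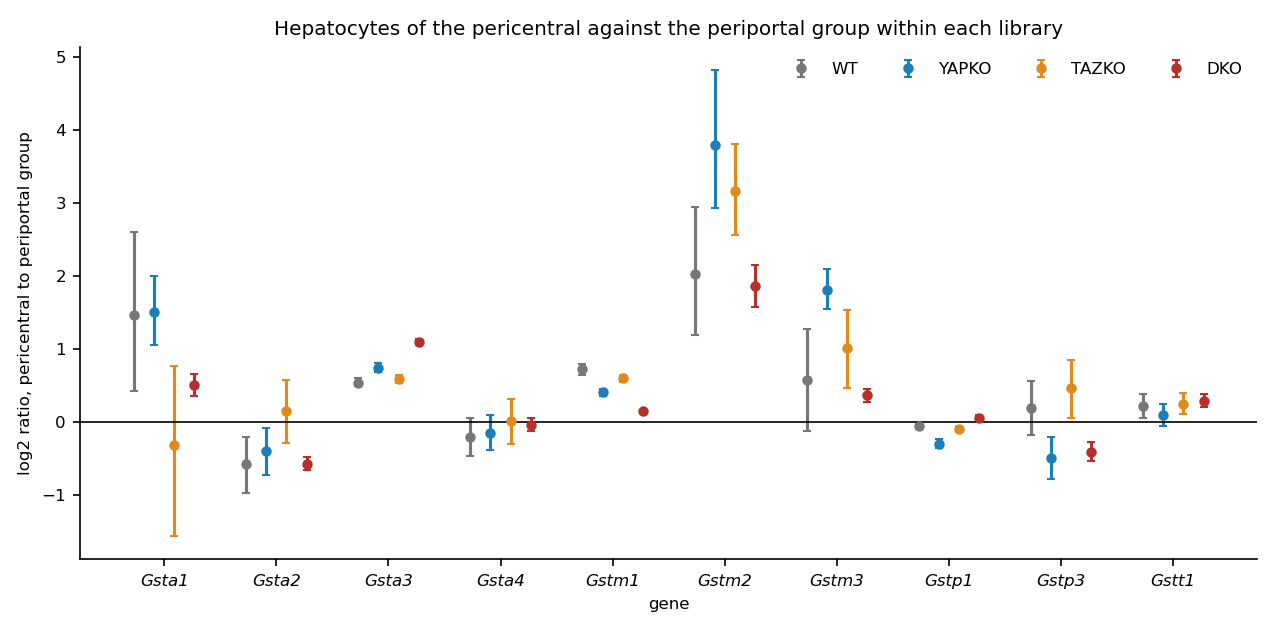
Log2 ratio of CPM in the pericentral to the periportal group of HCs for each member within each library, with exact 95% intervals. Gstm2 lies above 0 in all 4 libraries, from 1.86 to 3.80, while Gsta4, Gstp1 and Gstt1 lie near 0.

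Several members were raised in every zone group of DKO. In the periportal, middle and pericentral groups taken separately, the log2 ratio of DKO to WT was 4.50, 4.69 and 4.30 for Gstm3, 4.40, 4.65 and 3.43 for Gsta1, 2.58, 2.67 and 2.60 for Gsta2, and 1.49, 1.73 and 1.65 for Gsta4. Gsta1 was raised least in the pericentral group. In YAPKO, Gstm3 was raised most in the pericentral group, at 3.65 against 2.40 in the periportal group. Gstp1 in YAPKO was lowered by log2 ratios of -0.93, -1.56 and -1.17, most in the middle group with its deep HCs. Gstm2 differed more between groups. In YAPKO it had log2 ratios of -0.13 (-1.38 to 1.07), 0.72 (-0.05 to 1.51) and 1.64 (1.19 to 2.12), and in TAZKO of -0.19, 3.04 and 0.95. The groups were cut within each library, so groups of the same name are not matched between libraries. Cyp2e1 stood at 1.36 CPM in the middle group of WT and at 1161 in that of TAZKO. In the periportal group it stood at 0 in WT and 134.6 in TAZKO. Whether the ratios of the groups differ was not tested.

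Over the 12 points that these 3 groups make in 4 libraries, the levels of Gsta1 and Gstm3 had a Pearson correlation of 0.97 on the log2 scale, Gsta2 and Gsta4 of 0.98, Gsta4 and Gstp3 of 0.92, and Gstm1 and Gstt1 of 0.91. Gstp1 had no correlation above 0.55 with any other member. The points share libraries and depth, so these values describe the libraries and are no test. Among 2269 genes with a mean of at least 50 CPM and outside the GST family, the gene most like each member over the same points was 1810037I17Rik for both Gsta1 (0.983) and Gstm3 (0.967), Dctpp1 for Gsta2 (0.982), Akr1c20 for Gsta3 (0.951) and Tpmt for Gsta4 (0.989). For Gstm1 it was Calm2 (0.950), for Gstm2 Gulo (0.929), for Gstp1 Ndufa5 (0.974), for Gstp3 Vamp8 (0.983) and for Gstt1 Hprt (0.942). Gulo, for example, stood at 18.7 CPM in WT, 55.2 in YAPKO, 65.4 in TAZKO and 70.5 in DKO, low in WT and raised in the other libraries as Gstm2 was.

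Outside HCs, cell types were named by their markers in clusters made without any GST gene. Endothelial cells (ECs) numbered 1705, 1288, 1787 and 1277 in WT, YAPKO, TAZKO and DKO, Kupffer cells (KCs) 582, 607, 1147 and 714, hepatic stellate cells (HSCs) 100, 43, 96 and 78, and BECs 54, 33, 27 and 7. Most ECs, KCs and B cells fell into clusters of 1 or 2 libraries (ECs of WT in cluster 1, YAPKO in 2, TAZKO in 0 and DKO in 3), so for these types the library and the cluster cannot be told apart. Clusters without a clear name held 928, 610, 546 and 568 cells and are left out of the values by type. Among them, cluster 21 carried all 4 HC marker genes at a median of 2.38% of UMIs, just under the 3% that defines HCs, and its 76 cells of YAPKO, 73 of TAZKO and 188 of DKO held Gstm1 at 5176, 2267 and 6175 CPM, above the HCs of the same libraries. Free RNA from HCs may reach the droplets of other cells, and its amount was not measured directly. Levels are therefore set beside the B cells of the same library. For some of the types named as higher, they are also set beside the level that HC RNA alone would give. That level was taken from the share of the 4 HC marker genes in the same cells. It is not given for Gstm1 in BECs and ECs or for Gstp1 in ECs.

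Gstm2 was higher in several other types than in HCs. It stood at 107 CPM in ECs of WT, 98.7 in YAPKO, 90.4 in TAZKO and 119.6 in DKO, and at 154, 128, 103 and 123 in HSCs. In B cells it stood at 4.655, 0.692, 4.87 and 15.6 CPM, and in HCs at no more than 21.5. The B-cell values rest on 14 UMIs or fewer and were raised by small clusters, since the largest B-cell clusters held 1.495 (WT), 0 (YAPKO), 1.18 (TAZKO) and 3.135 (DKO). Its level in ECs was 470.0, 452, 123 and 202 times what HC RNA would give. The median EC held 5420, 7589, 3849 and 5706 UMIs, so ECs were deeper than B cells in each library. HSCs also carried UMIs of the 7 EC markers, 6817, 7251, 5856 and 6123 CPM in sum with 0 markers absent, against 15986 in the main EC cluster of WT, so the part of EC RNA in their Gstm2 was not tested.

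In KCs and T cells Gstm2 was found mainly in the clusters with EC markers. KC cluster 11 had 40.85, 37.6, 49.6 and 42.85 CPM of Gstm2 with 5531, 5533, 6552 and 5864 CPM of the 7 EC markers. The other large KC clusters had 2.04 (cluster 19, WT), 1.54 (cluster 4, YAPKO), 3.77 (cluster 5, TAZKO) and 2.15 (cluster 4, DKO), with EC markers at 649, 659, 1068 and 586 CPM. T-cell cluster 26 had 63.0, 55.65, 43.3 and 67.4 CPM of Gstm2 with EC markers at 9431, 9280, 7916 and 9237, while T-cell cluster 9 had at most 1.70 with EC markers at no more than 43.2. The 26 B cells of DKO in cluster 16 had 34.3 CPM of Gstm2, on 4 UMIs, with EC markers at 34.3 CPM. HSCs of WT had more Gstm2 than ECs with fewer EC markers. The part of EC RNA in the Gstm2 of KCs, T cells and B cells was not tested. Whether these clusters hold doublets was not tested.

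Gstm1 stood at 564 CPM in BECs of WT, 486 in YAPKO, 493 in TAZKO and 799 in DKO, the last from 7 cells. In HSCs it stood at 282, 222, 247 and 206, and in ECs at 151, 120, 192 and 226, against 72.5, 51.9, 133 and 62.4 in B cells. The DKO value in ECs includes 60 cells of cluster 0 at 1399 CPM, and most ECs of DKO, in cluster 3, stood at 146. BECs, HSCs and ECs were thus above B cells in every library, and HSCs had 15.1, 24.9, 6.52 and 9.74 times the level that HC RNA would give, while B cells had 1.27, 1.59, 1.32 and 0.981 times that level. Unlike in HCs, Gstm1 in HSCs was not higher in any knock-out library than in WT.

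Gsta4 stood at 33.1, 22.75, 16.3 and 23.4 CPM in HSCs and at 10.8, 11.4, 5.09 and 11.7 in KCs, against 5.985, 0, 2.71 and 7.795 in B cells. The HSC levels were 22.7, 60.01, 15.2 and 11.1 times what HC RNA would give. In HSCs and KCs the DKO level was not above that of WT beyond counting error. In conventional dendritic cells it was highest in DKO, at 7.23, 2.275, 0.806 and 17.98 CPM, which is 4.83, 2.06, 0.653 and 2.52 times what HC RNA would give. In BECs it stood at 40.9, 41.5, 38.5 and 241, the last again from 7 cells, or 7.765, 11.1, 8.82 and 23.6 times that level. Gstt1 stood at 181.5, 181, 126 and 177.5 CPM in BECs and 47.8, 58.3, 28.6 and 41.5 in HSCs, against 7.32, 5.54, 18.95 and 14.5 in B cells, so BECs of WT, YAPKO and DKO had about as much Gstt1 as HCs. The BEC levels were 14.6, 17.8, 6.28 and 19.1 times what HC RNA would give, and those of HSCs 13.9, 56.4, 5.79 and 21.6 times.

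Gstp3 was raised in T cells. It stood there at 47.2 CPM in WT, 56.8 in YAPKO, 20.3 in TAZKO and 33.6 in DKO, against 7.32, 5.54, 6.50 and 3.34 in B cells. It stood highest in T-cell clusters 9 and 13. In cluster 9 the leading genes were Dapl1, Lef1, Tcf7, Il7r and Ccr7, and Gstp3 stood at 96.8, 81.1, 37.4 and 52.8 CPM. In cluster 13 it stood at 54.7, 79.8, 31.2 and 56.6. It was lower in cluster 7 (Cxcr6, Art2a, Il2rb), at 22.7, 33.0, 11.2 and 14.7. In WT and YAPKO, T cells had more Gstp3 per UMI than HCs, and these levels were 35.9, 78.7, 14.1 and 13.6 times what HC RNA would give. The share of each T-cell cluster differed between libraries, so the order of libraries in pooled T cells is not read.

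Gsta1, Gsta2 and Gstm3 were low in all named types other than HCs. Gstm3 had 0 UMIs in BECs of every library. It reached 14.7 CPM in ECs of DKO, 2.63 times what HC RNA would give, and 16.2 CPM in neutrophils of YAPKO on 16 UMIs, 6.835 times that level. Gstp1 in ECs, at 328, 117, 158 and 264 CPM, was about as in B cells in WT and TAZKO (328 and 159) and higher in YAPKO and DKO (74.1 and 144), and Gsta3 in ECs stayed below B cells in all 4 libraries. The 4 HC marker genes held a median of 0.5165% and 0.5077% of UMIs in the main B-cell clusters of WT and TAZKO. In the main EC clusters of these libraries they held 0.3023% and 0.3795%, so B cells are not an equal baseline for ECs. The part of HC RNA in these EC levels was not tested. In BECs Gsta3 stood at 249, 280, 224 and 418 CPM against 102, 36.7, 106 and 61.2 in B cells, or 2.87, 5.30, 1.47 and 7.39 times what HC RNA would give, so in TAZKO it was little above that level.

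**Figure D5:**
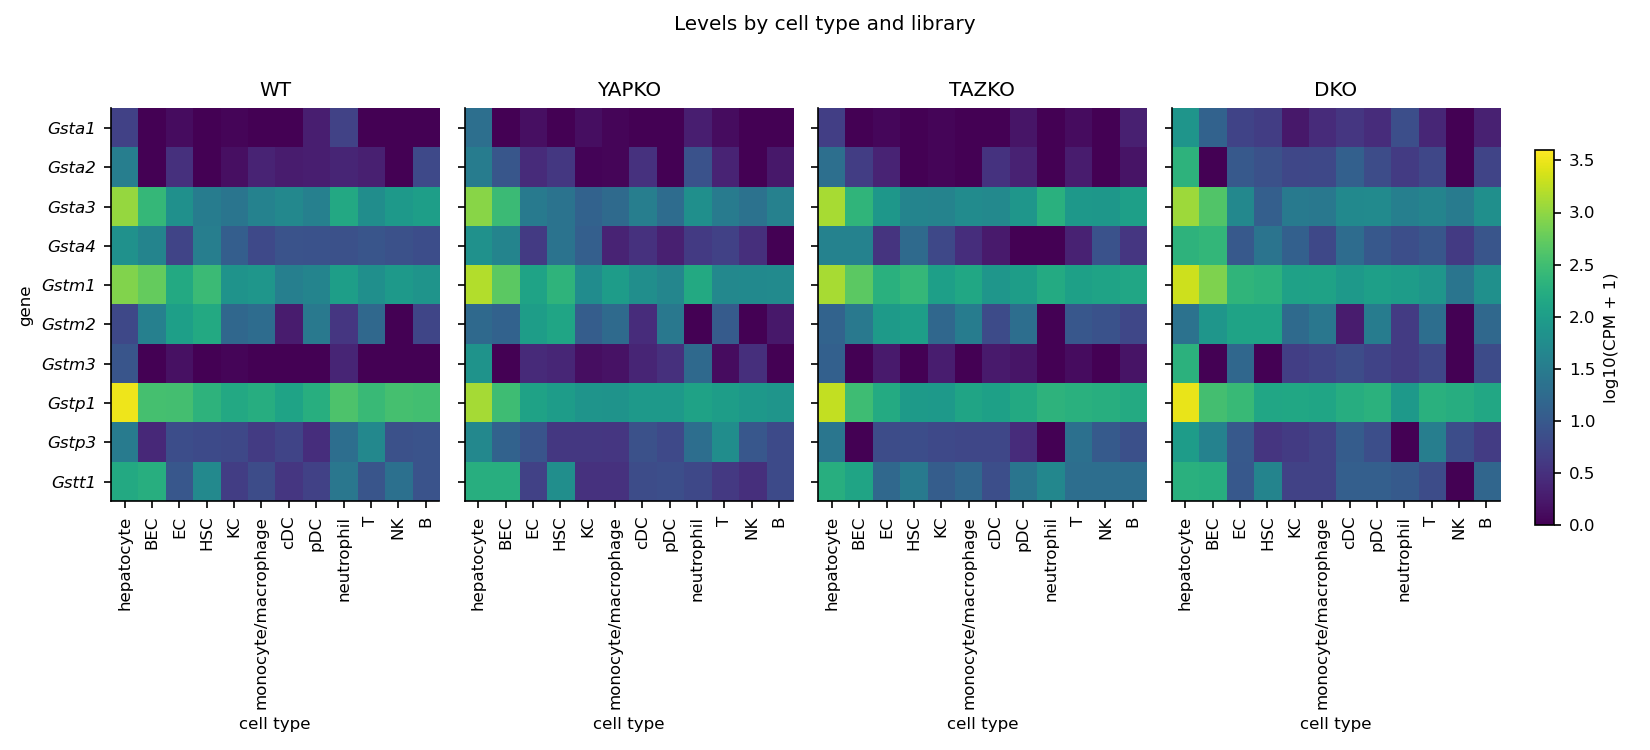
Level of each member by cell type, as log10 of CPM plus 1, with 1 panel per library. HCs are brightest for most members, Gstm2 is brightest in ECs and HSCs, and Gstp3 stands out in T cells among the immune types.

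The rest of the GST family in HCs was taken from a list of 17 further genes found in the matrices, of which 12 passed 10 CPM. Of these, 0 were at least 2-fold higher in YAPKO, 1 in TAZKO and 3 in DKO, and 0, 1 and 1 were lower, with medians of 0.07, 0.14 and 0.09. Of all genes tested, 3.97%, 15.6% and 8.62% were higher and 0.547%, 1.20% and 1.69% lower. The same shares stand beside the counts of the gene lists that follow. The mu-class cluster on chromosome 3 holds 7 genes within 149 kb, 3 of them members, and its genes did not move as a block. Gstm5 stood at 181 CPM in WT, 299 in YAPKO, 141 in TAZKO and 53.0 in DKO, so it was lowest in the library where Gstm1 and Gstm3 were highest (log2 ratio -1.77, interval -1.85 to -1.68). Gstm6 stood at 28.15, 50.04, 60.5 and 80.4 CPM, with log2 ratios of 0.83, 1.10 and 1.51, while Gstm4 and Gstm7 stayed within 2-fold of WT. The theta-class gene Gstt2 stood at 43.85, 41.8, 50.4 and 122.5 CPM and the microsomal gene Mgst3 at 19.8, 21.1, 19.55 and 73.6, both raised in DKO only (1.48 and 1.90), unlike Gstt1. Gstp2 was past 2-fold lower in TAZKO (-1.05). Mgst1, the most abundant gene of the wider family, stood at 4088, 3784, 4305 and 3231 CPM. Gsto1, Gstz1, Gstk1 and Gstt3 stayed within 2-fold in all 3 comparisons, Gstcd, Gsto2, Mgst2 and Hpgds were under 10 CPM, and Gstt4 had 0 UMIs.

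Genes of glutathione synthesis and use were read in the same HCs. Of the 22 that passed 10 CPM, 0, 2 and 1 were at least 2-fold higher in YAPKO, TAZKO and DKO and 0, 1 and 1 lower, with medians of 0.19, 0.20 and 0.39. The most abundant were Gpx1, Gnmt and Mat1a. The largest ratios were those of Gclc in YAPKO (0.89) and TAZKO (1.34) and of Gss in DKO (1.26), and the smallest those of Hagh in YAPKO (-0.31) and of Ahcy in TAZKO (-1.14) and DKO (-1.48). Gclc, which limits the rate of glutathione synthesis, stood at 132 CPM in WT, 244 in YAPKO, 333 in TAZKO and 168 in DKO, with TAZKO highest.

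Of 21 genes on the list of NRF2 targets and partners, 3, 5 and 4 were at least 2-fold higher in YAPKO, TAZKO and DKO and 1, 0 and 1 lower, with medians of 0.45, 0.52 and 0.59, close to those of all genes tested. Relative to the median of all genes tested, 0, 1 and 1 of them were higher and 1, 0 and 2 lower. Fth1, Ftl1 and Gclm were the most abundant. Srxn1 had the largest ratio in YAPKO (1.14) and Abcc3 in TAZKO and DKO (1.55 and 1.58), and the smallest were those of Osgin1 in YAPKO and DKO (-1.77 and -2.73) and of Ftl1 in TAZKO (-0.42). Of 11 genes linked to CAR and PXR, 4, 6 and 7 were at least 2-fold higher and 0 lower in each, with medians of 0.82, 1.73 and 1.15. Of all genes tested, 3.97%, 15.6% and 8.62% were higher. Relative to the median of all genes tested, 1, 6 and 4 of the 11 genes were higher and 0, 0 and 1 lower. Their most abundant genes were Cyp3a11, Cyp2c29 and Alas1. Cyp3a11 had the largest ratio in YAPKO (3.73) and DKO (5.14), at 30.3 CPM in WT, 403 in YAPKO, 150.2 in TAZKO and 1070 in DKO. In TAZKO the largest was Cyp2c54 (4.27), and the smallest were Ces2a in YAPKO and DKO (-0.53 and -0.92) and Cyp3a13 in TAZKO (-0.15).

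Several GST genes differ between male and female mice, so sex-linked and sex-biased genes were read in the same HCs. The Y-linked gene Ddx3y stood at 49.6, 70.0, 111 and 76.8 CPM in WT, YAPKO, TAZKO and DKO, and Xist had at most 5 UMIs in any library. Of the 3 sex-linked genes past 10 CPM (Ddx3y, Eif2s3y, Uty), 0, 2 and 0 were at least 2-fold higher and 0 lower in each, with medians of 0.44, 1.17 and 0.43. The largest ratios were Ddx3y in YAPKO and DKO (0.50 and 0.63) and Uty in TAZKO (1.28), and the smallest were those of Eif2s3y (0.12, 0.11 and 0.36). All 4 libraries therefore show Y-linked expression. Of 10 sex-biased genes, 1, 2 and 1 were at least 2-fold higher and 3, 2 and 3 lower, with medians of -0.65, 0.60 and -0.78. Relative to the median of all genes tested, 1, 2 and 1 of them were higher and 5, 2 and 7 lower. Mup20, Serpina1e and Cyp2d9 were the most abundant. Cyp2a4 had the largest ratio in YAPKO (5.61, 3.05 to 10.94) and DKO (9.96, 7.48 to 15.26), on 1 UMI in WT, and Slco1a1 in TAZKO (2.31). Mup7 had the smallest in YAPKO (-2.77) and DKO (-4.55) and Mup20 in TAZKO (-3.41).

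Of the 6 pericentral genes past 10 CPM, 5 were at least 2-fold higher than in WT in each knock-out library and 0 lower, with medians of 1.34, 2.56 and 1.55. Relative to the median of all genes tested, 3, 5 and 3 of them were higher and 0 lower. Rgn, Cyp2e1 and Cyp1a2 were the most abundant, Oat had the largest ratio in each (5.05, 4.66 and 4.78), and the smallest were those of Cyp2e1 in YAPKO (0.79) and Glul in TAZKO (0.25) and DKO (0.60). Of the 10 periportal genes 0, 2 and 1 were at least 2-fold higher and 0, 0 and 2 lower, with medians of 0.25, 0.16 and 0.31. Their most abundant genes were Ass1, Pck1 and Cps1, the largest ratios were those of Pck1 in YAPKO (0.70), Cps1 in TAZKO (1.09) and Sds in DKO (1.04), and the smallest was that of Ctsc in each (-0.77, -0.59 and -2.14). The WT library thus had fewer pericentral UMIs than the others, which moves with the ratios of the pericentral member Gstm2, and its part in them was not tested. The values by group given above cannot test it, since the groups are not matched between libraries.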

How the data were processed

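The authors deposited 1 matrix of raw UMI counts per library, made on mm10 by Cell Ranger 6.0.1 according to the submitters' processing notes, while the matrix headers name another version. A barcode was kept if it had between 500 and 6000 genes and mitochondrial UMIs of no more than 10%. UMIs were summed over HCs in each library, divided by all their UMIs and multiplied to CPM, and ratios to WT were computed for genes with a mean of at least 10 CPM. A count of 0 was read against a floor of 3 UMIs, and in the contrast of Gstm1-high HCs no ratio was taken where the floor was not below the other level. Other cells were clustered without GST genes (2000 variable genes, 20 components, 20 neighbours, Leiden at resolution 1). The members and gene lists were chosen with earlier results of these data known. Named genes are the members, the other GST genes and, from each list (glutathione, NRF2, CAR and PXR, sex-biased, sex-linked, pericentral, periportal), the 3 most abundant and those with the largest and smallest ratio. Intervals were tested on simulated data, but the outcome is not given here and no statement rests on it. Gene positions are from GENCODE on GRCm38. Tools were Python 3.11.15, numpy 2.4.6, scipy 1.17.1, pandas 2.3.3, scikit-learn 1.9.0, leidenalg 0.10.2, igraph 0.11.9 and matplotlib 3.10.9. The 9 alternatives planned and 3 added are given at the end.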

Additional observations from a re-analysis of the deposited data

How the results depend on the processing

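No paired analysis was possible because each genotype has 1 library and all share the replicate number 1. Counting depth limits Gsta1, Gstm2 and Gstm3 in WT (75, 97 and 152 UMIs). The counts of members past 2-fold and their median did not change beyond counting error with mitochondrial UMIs up to 20% or without HCs rich in other types' markers. Elsewhere values changed, and the cause was not tested. Against 3 higher, 1 lower and a median of 0.40, YAPKO gave 5, 0 and 1.14 with the limits read as UMIs, 5, 0 and 0.78 as a mean over cells, and 5, 0 and 0.86 at 2000 UMIs per cell. The share of all genes at least 2-fold higher rose as well, from 3.97% to 18.6%, 16.3% and 14.6% in that order. YAPKO gave 2 higher with HCs set at 1%, its lower count was 2 and its median 0.25 with HCs set at 10%, and its median was 0.21 without mitochondrial and the 20 most abundant genes and 0.01 after the median of all genes was subtracted. Against 1 higher, 0 lower and 0.04, TAZKO gave 0 higher with HCs set at 1% or 10%, 3 lower with the limits read as UMIs, 1 lower without mitochondrial and abundant genes, 4 lower as a mean over cells, 1 lower at 2000 UMIs, and 0 higher, 3 lower and a median of -0.48 after the median of all genes was subtracted. Against 7 higher and 1.68, DKO gave 4 and 0.55 with HCs set at 10% (233, 73, 103 and 119 HCs), and medians of 2.06 with the limits read as UMIs, 1.42 without mitochondrial and abundant genes and 1.23 after subtraction. With the limits read as UMIs, 45.1% of all genes were at least 2-fold higher in TAZKO and 30.4% in DKO, against 15.6% and 8.62%. Settings chosen after seeing the data gave, for HCs under 5000 UMIs, 5, 0 and 1.10 in YAPKO, 4 lower in TAZKO and a median of 1.98 in DKO, for HCs of at least 5000 UMIs 0 higher in TAZKO, and at 2000 UMIs without Gstm1-high HCs 5, 0 and 0.73 in YAPKO and 1 lower in TAZKO. Of all genes in YAPKO, 17.1% were at least 2-fold higher in HCs under 5000 UMIs and 15.4% at 2000 UMIs without Gstm1-high HCs. The zone ratio of Gsta1 in WT reversed from 1.47 to -0.55 with Cyp2e1 and Cyp2f2 alone, where 307 of 357 HCs had no Cyp2e1 UMI. Of single members' log2 ratios, 103 stayed within their counting interval and 167 moved beyond it under planned settings, and 34 and 56 under added ones. Of the other zone ratios 35 stayed and 44 moved, and of levels by cell type 290 and 150. Gsta1 and Gstm3 in YAPKO and DKO, and Gsta2 and Gstm2 in DKO, were at least 2-fold higher under all 12 alternatives, Gstm2 in YAPKO under 11 and in TAZKO under 8, Gsta4 and Gstp3 in DKO under 11 (0.76 and 0.33 with HCs set at 10%), Gstm1 in DKO under 10, and Gstp1 in YAPKO was lower under 12 and at least 2-fold lower under 7.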

Other observations

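Among the other GST genes, Hpgds, which encodes the prostaglandin D synthase of the sigma class, stood at 27.4 CPM in KCs of WT, 27.4 in YAPKO, 30.0 in TAZKO and 71.0 in DKO, and at 27.0, 59.8, 42.4 and 73.3 in monocytes and macrophages. B cells held 2, 13, 15 and 4 UMIs of Hpgds in all, which are counts and not levels. The part of free RNA in the levels of Hpgds was not tested. Mgst2 stood at 46.7, 66.2, 32.9 and 39.6 CPM in T cells, against 14.0, 13.85, 7.04 and 7.795 in B cells. In HCs the largest level of these 2 genes was 1.56 CPM.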
